A study of Homo sapiens with 8 samples.

Results

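The genes described here are 38 members of the DNA replication and G1/S programme, chosen by name from the deposited gene table, in which all 38 of 38 symbols had 1 row among 58735 genes. They code for the proteins that license and fire replication origins, copy DNA and supply nucleotides, and for the cyclins, E2F factors and pocket proteins that control entry into S phase. RNA was measured in HepG2, a hepatocellular carcinoma cell line, kept in medium with serum. In 4 control libraries, with genotype WT in the labels, the cells had received a control lentivirus. In 4 DNMT3A libraries, with genotype DNMT3A overexpression, the lentivirus carried DNMT3A, an enzyme that sets new DNA methylation. Both groups carry a lentivirus whose library name holds pLV_EGFP. The sources used here name neither the transgene's promoter nor the time after infection, and do not say whether cells were sorted, selected or cloned. Nor do they tie the 4 libraries of a group to separate cultures; the p-values below therefore rest on a spread between libraries that could be technical.

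In G1 phase, origins are licensed when the origin recognition complex, CDC6 and CDT1 load the ring of MCM2 to MCM7 onto DNA. Pocket proteins such as RB1 and RBL1 hold E2F factors in check until cyclin D and cyclin E kinases phosphorylate them, after which activating E2F factors switch on most genes of this set. At S phase the CDC7 kinase and CDC45 with the GINS complex turn the MCM ring into an active helicase. In proliferating liver cells and liver tumours this programme is a usual marker of growth.

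Levels are given in FPKM, a fragment count scaled by the length of the gene and the size of the library. A difference is the DNMT3A mean less the control mean of log2(FPKM + 1), which understates changes of low genes. A gene was called when limma's Benjamini-Hochberg adjusted p over all 11620 tested genes was under 0.05. The libraries held 15911019 to 17677093 recovered reads. DNMT3A, the check of the labels, lay between 3.45 and 3.89 FPKM in the controls and between 7.26 and 10.2 FPKM in the DNMT3A libraries (log2 1.085, limma adjusted p = 0.000122). Hepatocyte markers were present in every library, with a summed level of 8771 to 11472 FPKM over 9 genes, most of it ALB. Of these 9 genes 3 were called higher with DNMT3A, as were 9.93% of all tested genes, and 6 did not pass the test. AFP, alpha-fetoprotein, went from 369.9 ± 9.28 to 1143 ± 192 FPKM (SD, n = 4 each), FGB, a fibrinogen chain, from 34.5 ± 1.52 to 107 ± 9.13 FPKM and TTR, a thyroid hormone carrier, from 6.035 ± 1.24 to 17.1 ± 1.30 FPKM. The groups did not overlap for these 3 genes (limma adjusted p = 4.83e-05, 5.07e-06 and 8.71e-05). Fibroblast markers summed to 0.387 to 0.754 FPKM over 6 genes and endothelial markers to 0.435 to 0.679 FPKM over 4. Of 5 blood cell markers PTPRC and CD3E were at 0 in all libraries, while LYZ lay at 196.5 to 263 FPKM in the controls and 313 to 344 FPKM in the DNMT3A libraries. LYZ was called higher (log2 0.48, limma adjusted p = 0.00812). The part of these marker differences in the results below was not tested.

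Members were called at a share near that of all tested genes, and the 2 shares were not tested against each other. Of the 37 members with a mean FPKM of at least 1, 3 were higher (E2F1, E2F7 and MCM3), 3 were lower (RB1, RBL1 and RRM2) and 31 did not pass the test. The share called was 16.2%, against 20.6% of all tested genes; 9.93% of all tested genes were higher and 10.6% lower. Of 9 tested G1/S control genes 2 were higher, 2 were lower and 5 did not pass (44.4% called), and this share was not tested. The groups did not overlap for 7 members (18.9%), against 25.1% of all tested genes. The median difference of the members was 0.02 and their median absolute difference 0.105, beside -0.01 and 0.14 over all tested genes. In bulk RNA, fewer cells in a cycle phase and less RNA per cell cannot be told apart. The count of 6 was 3 without a filter, 3 without control library 1, 2 without control library 2, 1 without control library 3 and 3 without DNMT3A library 3. With array weights, which give noisier libraries less weight, it was 9, of which 4 were higher and 5 lower. With quantile normalization the split was 4 higher and 2 lower.

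**Figure D1:**
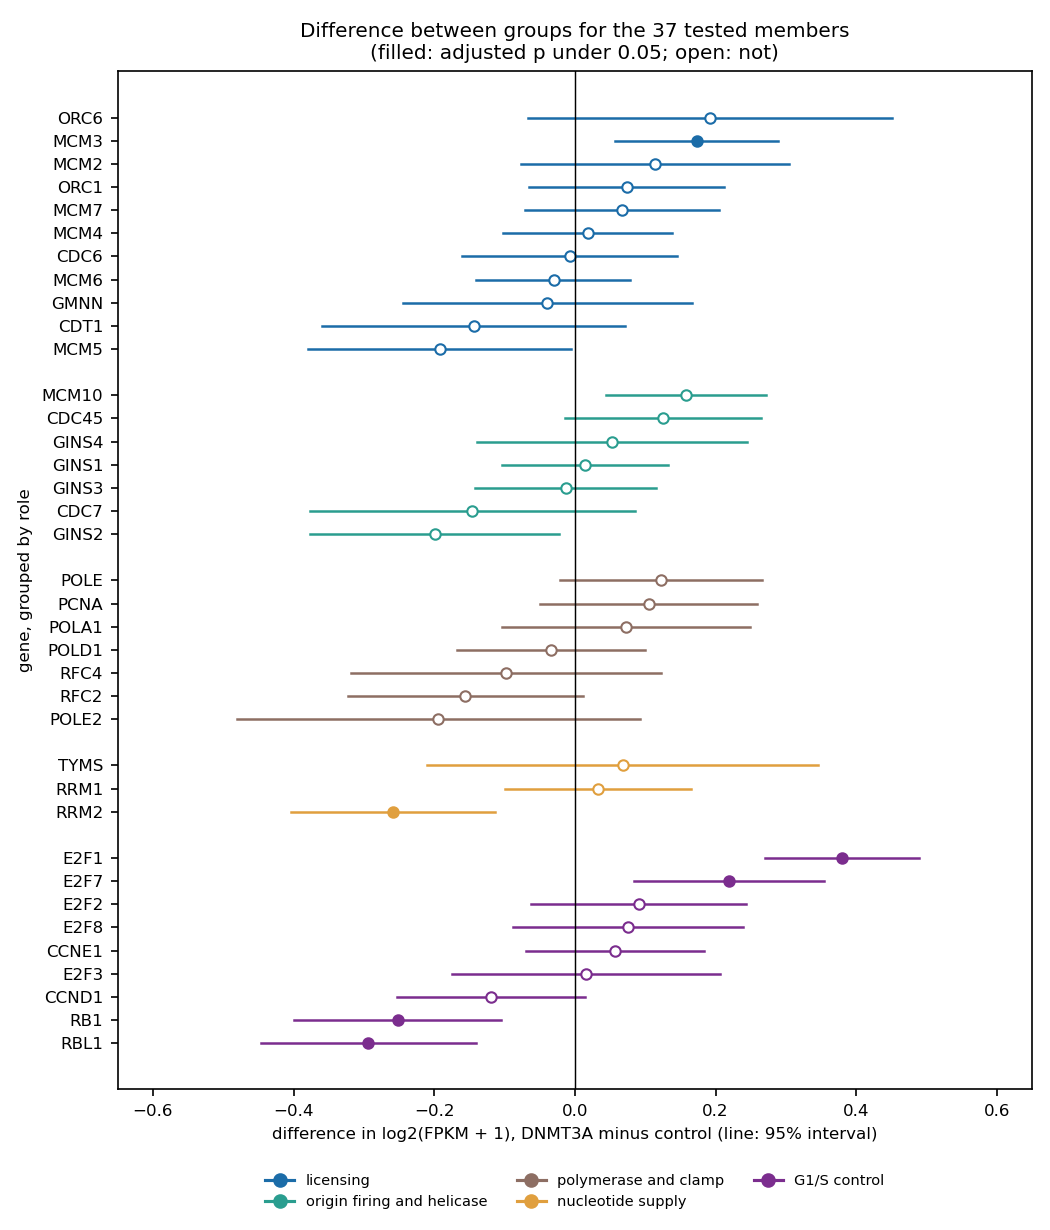
Each point is the difference in log2(FPKM + 1), DNMT3A minus control, for 1 of 37 tested members, with limma's 95% interval as a line, and colours give the role. Filled points passed the adjusted threshold of 0.05. 3 filled points lie right of 0 (E2F1, E2F7 and MCM3) and 3 left (RB1, RBL1 and RRM2).

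The clearest difference was that of E2F1, an activating E2F factor (ENSG00000101412, hg38 chromosome 20, 33675683 to 33686404, minus strand). E2F1 lay at 28.2, 28.1, 28.3 and 29.5 FPKM in control libraries 1 to 4 and at 37.7, 39.3, 36.3 and 36.4 FPKM in DNMT3A libraries 1 to 4. Every DNMT3A library was above every control library. The mean went from 28.5 ± 0.631 to 37.4 ± 1.42 FPKM (SD, n = 4 each), 1.31 times the control mean, with a log2 difference of 0.38 ± 0.05 (SE; limma adjusted p = 0.00109). E2F1 was called under all 16 alternative settings, with an adjusted p of at most 0.00896 and a difference of 0.36 to 0.42.

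E2F7, an E2F factor that represses E2F targets, also rose (ENSG00000165891, chromosome 12, 77021247 to 77065580, minus strand). E2F7 was at 4.49, 4.42, 4.94 and 5.13 FPKM in the controls and at 5.96, 5.60, 5.45 and 5.72 FPKM in the DNMT3A libraries. The groups were apart by a small gap, from control library 4 to DNMT3A library 3. The log2 difference was 0.22 ± 0.06 (SE, n = 4 each; limma adjusted p = 0.0314). It lost its call without control library 1, 2 or 3, without DNMT3A library 1, 3 or 4 and without a filter (limma adjusted p = 0.0518 to 0.0857).

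The other E2F members did not pass the test. E2F2, an activator, had a log2 difference of 0.09 (95% interval -0.06 to 0.24), E2F3, another activator, of 0.02 (-0.175 to 0.21), and E2F8, the relative of E2F7, of 0.08 (-0.09 to 0.24). On the FPKM scale E2F1 was the most abundant of these E2F genes at a mean level of 32.97 FPKM over the 8 libraries, followed by E2F3 at 9.03 FPKM, E2F8 at 5.47 FPKM, E2F7 at 5.21 FPKM and E2F2 at 4.02 FPKM. The ranges of E2F8 and E2F7 overlapped, as did those of E2F7 and E2F2.

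Both pocket protein genes among the members were lower, as were 10.6% of all tested genes. RBL2, a pocket protein gene outside the members, did not pass the test (log2 0.04, limma adjusted p = 0.69), and its groups overlapped. RBL1, which codes for p107 (ENSG00000080839, chromosome 20, 36996349 to 37095995, minus strand), was at 12.2, 12.75, 14.3 and 13.7 FPKM in the controls and at 11.6, 9.815, 10.2 and 10.8 FPKM in the DNMT3A libraries. All 4 DNMT3A libraries were below all controls, with DNMT3A library 1 nearest to them. The log2 difference was -0.29 ± 0.07 (SE, n = 4 each; limma adjusted p = 0.0157), and the call was lost without control library 3 (limma adjusted p = 0.0517). E2F1 and RBL1 lie on the same chromosome and moved in opposite directions, and the part of chromosome position in their differences was not tested.

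RB1, the retinoblastoma protein gene (ENSG00000139687, chromosome 13, 48303726 to 48599436, plus strand), was at 16.48, 16.25, 16.75 and 16.43 FPKM in the controls. In the DNMT3A libraries RB1 was at 14.75, 11.95, 13.79 and 14.37 FPKM. The controls were tight and DNMT3A library 2 was the lowest of all. The log2 difference was -0.25 ± 0.07 (SE, n = 4 each; limma adjusted p = 0.0253). Without control library 1, 2, 3 or 4, without DNMT3A library 3 or without a filter the call was lost (limma adjusted p = 0.0517 to 0.0706). RB1 lies on a chromosome whose tested genes were lower as a whole: 33.2% of 199 genes of chromosome 13 were called lower and 4.52% higher, with a median difference of -0.15. That chromosome deviated from its control means by a median of -0.13, -0.22, -0.14 and -0.10 in DNMT3A libraries 1 to 4. The part of chromosome position in the RB1 difference was not tested. The gene LPAR6 lies within RB1 on the opposite strand, with a mean of 4.47 FPKM in controls and of 4.63 FPKM with DNMT3A (log2 0.04); no strand-marking step is given in the labels, so reads of the shared stretch could not be told apart.

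**Figure D2:**
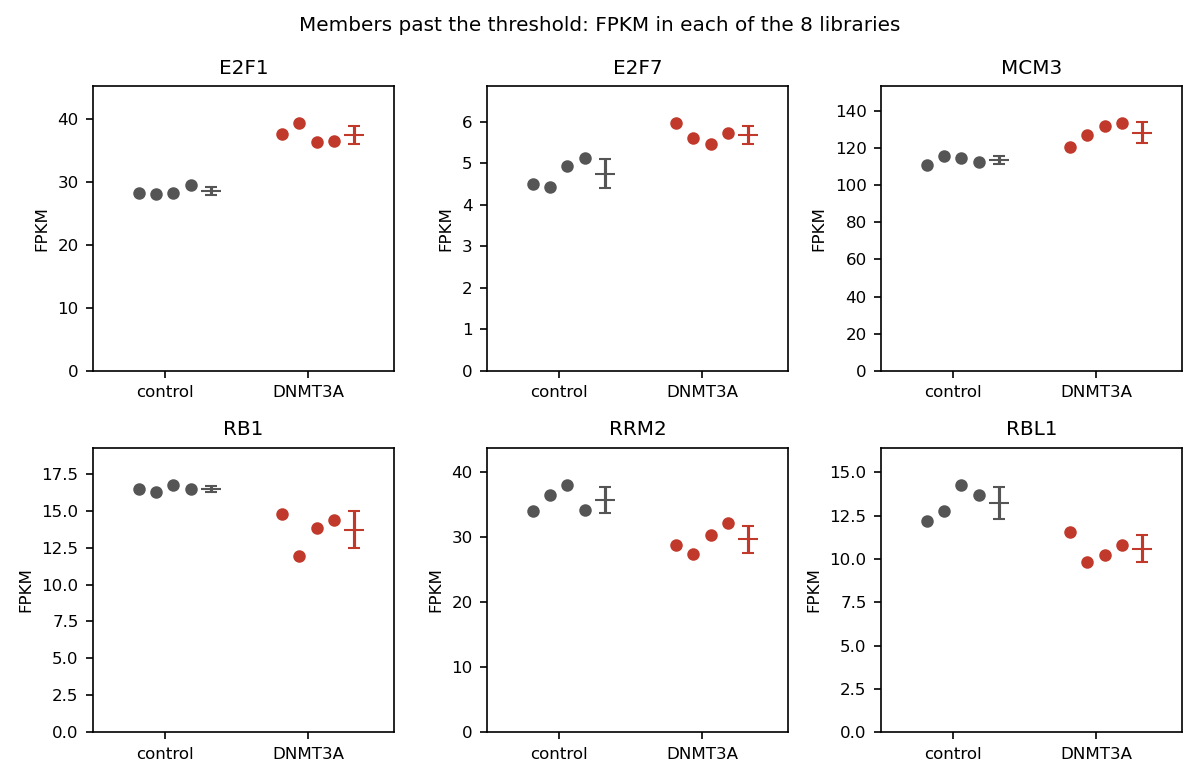
FPKM (vertical axes, from 0) of the 6 called members in each of 4 control libraries (grey) and 4 DNMT3A libraries (red), in library order from left to right, with mean and SD beside them. The groups do not overlap in any panel, and the log2 difference is largest for E2F1, from 28.5 to 37.4 FPKM.

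The cyclins of the set did not pass the test. CCND1, cyclin D1, was the most abundant G1/S regulator at 110, 119, 119 and 113 FPKM in the controls and 109, 113.5, 99.8 and 102 FPKM in the DNMT3A libraries. The groups overlapped, and the log2 difference was -0.12 (95% interval -0.25 to 0.015; limma adjusted p = 0.188). CCND1 passed with array weights (log2 -0.175, limma adjusted p = 0.027). CCNE1, cyclin E1, went from a mean of 18.6 to 19.4 FPKM, with a log2 difference of 0.06 (-0.07 to 0.18). CCNE2, cyclin E2, was the only member under the filter: it was at 0.871, 0.859, 0.977 and 0.930 FPKM in the controls and at 0.964, 0.894, 0.654 and 1.02 FPKM in the DNMT3A libraries. Its mean of 0.896 FPKM lies just under the minimum of 1, while the lowest tested member, GINS3, had a mean of 3.75 FPKM. CCNE2 overlaps INTS8 and NDUFAF6, which lie on the other strand at 4.79 and 2.60 FPKM, so part of its few reads (at least 50 in each library) could come from them.

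The promoters of 3 called members are shown because E2F sites are the textbook link between E2F1 and this gene set, and because DNMT3A acts on CG dinucleotides. Each window runs from 250 bases before to 50 after a RefSeq start site (build GRCh38.p14), printed on the gene's strand from 5′ to 3′, with capitals for matches to an E2F motif. The motif was spelled as TTTGGCGC, TTTCCCGC, TTTCGCGC or TTTGCCGC on either strand.
E2F1 (chr20:33686336-33686635, minus strand): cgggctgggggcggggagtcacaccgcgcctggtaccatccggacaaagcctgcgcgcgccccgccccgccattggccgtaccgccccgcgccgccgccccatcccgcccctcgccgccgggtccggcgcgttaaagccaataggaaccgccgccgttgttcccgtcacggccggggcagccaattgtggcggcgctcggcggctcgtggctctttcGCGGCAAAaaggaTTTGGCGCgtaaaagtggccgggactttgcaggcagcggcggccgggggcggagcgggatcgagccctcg
RBL1 (chr20:37095948-37096247, minus strand): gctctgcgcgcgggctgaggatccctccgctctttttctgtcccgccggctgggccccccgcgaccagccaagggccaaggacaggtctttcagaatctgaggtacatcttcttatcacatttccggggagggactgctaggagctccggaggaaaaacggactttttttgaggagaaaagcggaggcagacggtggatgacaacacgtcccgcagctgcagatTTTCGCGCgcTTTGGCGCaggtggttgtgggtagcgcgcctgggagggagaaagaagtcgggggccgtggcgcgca
RRM2 (chr2:10122489-10122788, plus strand): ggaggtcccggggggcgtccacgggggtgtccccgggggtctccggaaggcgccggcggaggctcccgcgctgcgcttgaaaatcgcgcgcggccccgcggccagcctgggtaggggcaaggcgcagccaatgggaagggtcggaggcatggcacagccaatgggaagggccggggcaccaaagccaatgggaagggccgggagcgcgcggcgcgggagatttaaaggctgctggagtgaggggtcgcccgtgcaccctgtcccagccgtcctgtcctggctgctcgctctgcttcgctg
E2F1 and RBL1 each held 2 neighbouring matches: they began 33 and 20 bases before the start site in E2F1, and 26 and 16 bases before it in RBL1. The 2 matches read on opposite strands in E2F1 and on the same strand in RBL1. These 2 genes moved in opposite directions, and the part of the matches in their differences was not tested. The RRM2 window held no match, and its start site lies 2041 bases inside the annotated gene. The window of E2F7, also a called member and not printed here, held no match either. The windows held 46 CG dinucleotides in E2F1, 25 in RBL1, 31 in RRM2 and 35 in E2F7, beside a median of 27 over the promoters of 8258 tested genes.

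Of the 38 members 32 matched the RefSeq promoter table by symbol, leaving MCM4, MCM5, GINS4, CCND1, CCNE2 and E2F8. The windows of RB1 and GINS3 were left out, since they start 172724 and 97391 bases inside the annotated gene. Among the remaining 30 members 17 (56.7%) held at least 1 E2F match, against 5.81% of 8258 promoters of tested genes and 3.31% of all 35116 promoters. The matches were spread over called and uncalled members: 2 of 3 higher members (E2F1 and MCM3), 1 of 2 lower members (RBL1) and 14 of 25 uncalled members held one. MCM6 (log2 -0.03) held 4 matches, the most of any member. A second motif, TTTGAA on either strand, the core of the CHR element of late cell cycle genes, was found in 2 of 30 (RRM1 and E2F3), against 9.58% of promoters of tested genes. Members had 20 to 47 CG dinucleotides in the window. A match is a run of letters in this window and no measure of binding, and methylation was not measured here.

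Among the 11 licensing genes MCM3 rose and 10 did not pass the test (9.09% called, against 20.6% of all tested genes). MCM3, a subunit of the MCM ring (ENSG00000112118, chromosome 6, 52264009 to 52284881, minus strand), was at 111, 116, 115 and 112.5 FPKM in the controls and at 121, 127, 132 and 133 FPKM in the DNMT3A libraries. The groups did not overlap, and DNMT3A library 1 was nearest to the controls. The log2 difference was 0.17 ± 0.05 (SE, n = 4 each), 1.13 times the control mean (limma adjusted p = 0.0423). The call was lost without control library 1, 2, 3 or 4, without DNMT3A library 3 or 4 and without a filter (limma adjusted p = 0.0612 to 0.118).

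The other subunits of the ring did not follow MCM3 past the threshold. Their log2 differences were 0.11 for MCM2, 0.07 for MCM7, 0.02 for MCM4, -0.03 for MCM6 and -0.19 for MCM5. MCM5 fell short at a limma adjusted p of 0.133 (95% interval -0.38 to -0.01 before adjustment), and it passed with array weights (0.0325) or when DNMT3A library 2 was left out (0.0314). The ring holds its subunits in equal number, but their RNA levels per length were unequal: MCM3 had a mean level of 120.9 FPKM over the 8 libraries, MCM7 of 61.4, MCM2 of 24.7, MCM6 of 22.8 and MCM5 of 12.7 FPKM, with MCM4 between MCM7 and MCM2. Of neighbours in this order only MCM2 and MCM6 had overlapping ranges.

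The loaders of the ring did not pass the test. ORC1, the largest subunit of the origin recognition complex, had a log2 difference of 0.07 (95% interval -0.065 to 0.21), and ORC6, its smallest subunit, of 0.19 (-0.07 to 0.45). ORC6 varied widely in both groups, from 13.1 to 18.4 FPKM in the controls and from 16.2 to 22.1 FPKM in the DNMT3A libraries. CDC6, the loading ATPase, went from a mean of 21.3 to 21.2 FPKM. CDT1, its partner, was at 20.9 to 23.2 FPKM in the controls and at 16.5 to 24.0 FPKM in the DNMT3A libraries (log2 -0.14, -0.36 to 0.07), with DNMT3A library 2 highest and DNMT3A library 4 lowest. GMNN, geminin, which blocks CDT1 after origins fire, had a log2 difference of -0.04 (-0.24 to 0.17).

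**Figure D3:**
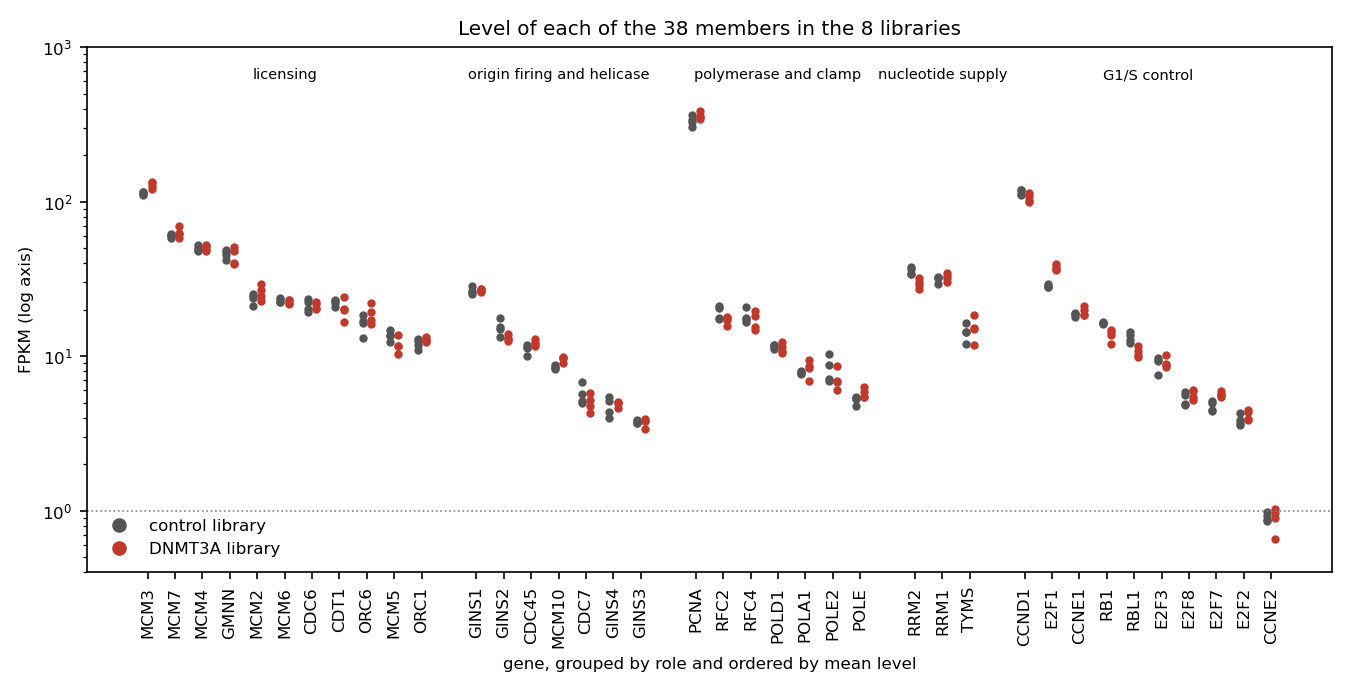
FPKM on a log axis of all 38 members, grouped by role and ordered by mean level, with 1 point per control library (grey) and DNMT3A library (red). The dotted line marks 1 FPKM, under which CCNE2 lies with a mean of 0.896, and PCNA is highest with a mean of 345.9 FPKM.

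None of the 7 genes of origin firing and the helicase was called by limma after adjustment, against 20.6% of all tested genes. Of these 7 genes 2 had an unadjusted p under 0.05. MCM10, which helps to start the helicase, came nearest: it was at 8.22, 8.80, 8.40 and 8.52 FPKM in the controls and at 9.70, 9.68, 9.905 and 9.04 FPKM in the DNMT3A libraries. All 4 DNMT3A libraries were above all controls, with a log2 difference of 0.16 (95% interval 0.04 to 0.27; limma adjusted p = 0.0543). MCM10 passed with quantile normalization (0.0468), with voom on recovered reads (0.0495), with scaling to read totals (0.0353), with array weights (0.0102) and without DNMT3A library 4 (0.0369).

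GINS2, a subunit of the GINS complex, had the lowest difference of the group, -0.20 (95% interval -0.38 to -0.02; limma adjusted p = 0.104), and passed without control library 4 (0.0336). GINS1, the most abundant gene of this role, was at 26.14, 28.26, 26.49 and 25.08 FPKM in the controls and at 27.3, 25.94, 26.5 and 27.27 FPKM in the DNMT3A libraries, and the groups overlapped (log2 0.01). The partners GINS3 (log2 -0.01) and GINS4 (log2 0.05) also had differences near 0. Like the MCM ring, this complex had unequal RNA levels per length: the mean over the 8 libraries was 26.6 FPKM for GINS1, 14.2 for GINS2, 4.82 for GINS4 and 3.75 for GINS3, and no neighbours in this order overlapped. CDC45, which joins GINS on the ring, had a log2 difference of 0.125 (-0.01 to 0.265). CDC7, the kinase that fires origins, had a log2 difference of -0.15 (-0.38 to 0.085), with a mean of 5.66 FPKM in controls and 5.01 FPKM with DNMT3A.

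The 7 polymerase and clamp genes also had no call by limma (0, against 20.6% of all tested genes). None had an unadjusted p under 0.05, and voom on recovered reads called none of them. PCNA, the sliding clamp, was the most abundant member, at 328, 365, 336 and 305 FPKM in the controls and at 352, 356, 384 and 341 FPKM in the DNMT3A libraries. The groups overlapped (log2 0.105, 95% interval -0.05 to 0.26). The catalytic subunits of the replicative polymerases had log2 differences of 0.07 for POLA1, -0.03 for POLD1 and 0.12 for POLE. The pseudogene EEF1B2P3 overlaps 678 bases of the POLA1 gene on the opposite strand, at 38.7 FPKM beside 8.09 FPKM for POLA1. Whether its reads enter the POLA1 level was not tested. POLE2, the second subunit of polymerase epsilon, had the widest interval of the members (log2 -0.19, -0.48 to 0.09): it varied from 6.93 to 10.4 FPKM in the controls and from 6.04 to 8.60 FPKM in the DNMT3A libraries. The clamp loader subunits RFC2 and RFC4 had log2 differences of -0.16 (-0.32 to 0.01) and -0.10 (-0.32 to 0.12).

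Of the 3 genes of nucleotide supply RRM2 fell (33.3% called, against 20.6% of all tested genes). RRM2, the S-phase subunit of ribonucleotide reductase (ENSG00000171848, chromosome 2, 10120698 to 10131419, plus strand), was at 33.9, 36.4, 37.99 and 34.1 FPKM in the controls and at 28.7, 27.3, 30.3 and 32.1 FPKM in the DNMT3A libraries. All DNMT3A libraries were below all controls. The log2 difference was -0.26 ± 0.07 (SE, n = 4 each; limma adjusted p = 0.0209), and the DNMT3A mean was 0.832 times the control mean. The call was lost without control library 2 or 3, without DNMT3A library 1 and with quantile normalization (limma adjusted p = 0.0568 to 0.0751). The listed RRM2 pseudogenes were at 0.178 FPKM or less in every library.

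RRM1, the partner subunit of the same enzyme, did not pass the test, at 29.44, 32.04, 32.7 and 31.96 FPKM in the controls and 34.5, 29.99, 32.85 and 31.83 FPKM in the DNMT3A libraries (log2 0.03, 95% interval -0.10 to 0.165). RRM1 and RRM2 had overlapping levels over the 8 libraries. TYMS, thymidylate synthase, had a log2 difference of 0.07 (-0.21 to 0.35). TYMS varied most in the DNMT3A group, from 11.9 FPKM in library 4 to 18.4 FPKM in library 2. It overlaps TYMSOS and ENOSF1 on the opposite strand, at 16.4 and 3.44 FPKM, so its level is uncertain.

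For the 31 uncalled members the data bound the differences. All 31 intervals at 95% lay within -0.5 to 0.5 on the log2(FPKM + 1) scale, from a lowest bound of -0.48 to a highest of 0.45. The differences themselves ran from -0.20 to 0.19, and 3 had an unadjusted p under 0.05 (MCM10, MCM5 and GINS2). The intervals of the 6 called members also lay within -0.5 to 0.5, so this bound does not set the 31 uncalled members apart from them. Tested members had at least 280 recovered reads in each library. By library, the 37 members deviated from their control means by a median of 0.04, 0.08, 0.01 and 0.03 in DNMT3A libraries 1 to 4. The 4 control medians lay within -0.03 to 0.03. In no role did the medians of all 4 DNMT3A libraries lie on the same side of the control range: the licensing genes, for example, had medians of 0.05, 0.08, 0.04 and -0.045.

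Other genes of the pathway gave a like picture, with 11 higher, 9 lower and 89 uncalled of 109 tested (18.3% called, against 20.6% of all tested genes). The split was 12 and 6 with quantile normalization and 13 and 7 with voom on recovered reads. The count of 20 was 12 without a filter, 33 with array weights, 13 without DNMT3A library 1 or 3 and 11 without control library 3.

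Of 16 other genes of the cyclin, CDK and E2F network 1 rose, 2 fell and 13 did not pass. The share called was 18.8%, against 20.6% of all tested genes. TFDP1, the DP subunit that pairs with E2F factors, was at 62.2, 69.2, 69.0 and 62.3 FPKM in the controls and at 46.49, 47.68, 46.95 and 49.95 FPKM in the DNMT3A libraries. The groups were far apart (log2 -0.45 ± 0.06 SE, limma adjusted p = 0.00105), and the call held under all 16 settings. CDC25A, the phosphatase that activates CDK2, rose (log2 0.245, limma adjusted p = 0.0337) and CKS1B, a CDK subunit, fell (log2 -0.24, limma adjusted p = 0.027). CDC25A lost its call without control library 1, 2 or 3, without DNMT3A library 1 or 3 and without a filter (0.0661 to 0.0902), and CKS1B without control library 2, without DNMT3A library 1 and without a filter (0.0505 to 0.0706). Of 5 tested CDK inhibitors 1 rose, 1 fell and 3 did not pass (40% called, against 20.6% of all tested genes). CDKN1A, also a target of p53, rose (log2 0.59, limma adjusted p = 0.00801) from 23.8 ± 2.275 to 36.7 ± 6.87 FPKM, with DNMT3A library 2 highest at 46.9 FPKM. CDKN3, a CDK phosphatase, fell (log2 -0.24, limma adjusted p = 0.0375), and lost its call without control library 1, 2 or 3, without DNMT3A library 1, 2 or 3, without a filter, with quantile normalization, with scaling to read totals and with voom (0.0579 to 0.101). CDKN1B, p27, had a log2 difference of 0.15 and did not pass.

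Of 16 other origin and fork genes TICRR, WDHD1 and MCM8 rose and 13 did not pass (18.8% called, against 20.6% of all tested genes). TICRR, which recruits CDC45 to origins, was at 4.655, 4.377, 5.586 and 5.335 FPKM in the controls and at 6.715, 7.338, 6.745 and 6.843 FPKM in the DNMT3A libraries (log2 0.41, limma adjusted p = 0.00544). TICRR and MCM8, a helicase of recombination (log2 0.25, limma adjusted p = 0.0102), kept their calls under all 16 settings. WDHD1, which links the helicase to polymerase alpha (log2 0.285, limma adjusted p = 0.0309), lost it without control library 1, 3 or 4, without DNMT3A library 1, 3 or 4 and without a filter (0.0531 to 0.0858).

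Of 21 other polymerase, primase and maturation genes RFC3, RNASEH2B and POLE3 fell and 18 did not pass. The share called was 14.3%, against 20.6% of all tested genes. RFC3, a clamp loader subunit, went from 29.6 ± 2.83 to 23.1 ± 1.83 FPKM (log2 -0.34, limma adjusted p = 0.0155). RNASEH2B, a subunit of ribonuclease H2, went from 1.42 ± 0.0825 to 0.930 ± 0.0933 FPKM (log2 -0.33, limma adjusted p = 0.0177). Its DNMT3A mean lies under the minimum of 1 FPKM, so RNASEH2B passed the filter only through the controls (mean of 1.17 FPKM over the 8 libraries). RNASEH2B lost its call without control library 3 (0.0576). POLE3, an accessory subunit of polymerase epsilon (log2 -0.22, limma adjusted p = 0.0462), lost it without control library 1, 2 or 3, without DNMT3A library 1, 2, 3 or 4, without a filter, with quantile normalization, with scaling to read totals and with voom (0.0559 to 0.13). The members and other pathway genes on chromosome 13 were RB1, TFDP1, RFC3 and RNASEH2B. All 4 were called lower, against 33.2% of 199 tested genes of that chromosome and 10.6% of all tested genes. Their differences were -0.45 to -0.25 beside the chromosome's median of -0.15. Of 12 other nucleotide supply genes DUT, which removes dUTP, fell (log2 -0.27, limma adjusted p = 0.0317) and 11 did not pass. The share called in this list was 8.33%, against 20.6% of all tested genes. DUT lost its call without control library 1, 2 or 3, without DNMT3A library 1, 2, 3 or 4 and without a filter (0.0521 to 0.0869). TK1, thymidine kinase, had a log2 difference of -0.19 (limma adjusted p = 0.0899).

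Of 13 genes of chromatin assembly and the S-phase checkpoint 2 rose and 1 fell (23.1% called, against 20.6% of all tested genes). The histone chaperone ASF1A fell (log2 -0.30, limma adjusted p = 0.00837), with the call kept under all 16 settings, and NASP, another histone chaperone, rose (log2 0.23, limma adjusted p = 0.0173). WEE1, the kinase that restrains CDK1, rose (log2 0.27, limma adjusted p = 0.0257). NASP lost its call without control library 3 or DNMT3A library 3 (0.0573 to 0.0601), and WEE1 without control library 1, 3 or 4, without DNMT3A library 1 or 3 and without a filter (0.0584 to 0.0691).

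The mitosis genes, which follow S phase in the cycle, were set beside the members. Of 26 tested 4 rose and 1 fell, 19.2% against 16.2% of the members and 20.6% of all tested genes. Their median difference was 0.025, and the difference between the lists was not tested. CENPE, a kinetochore motor, was at 3.34, 3.23, 3.45 and 4.27 FPKM in the controls and at 5.49, 5.70, 4.72 and 6.73 FPKM in the DNMT3A libraries (log2 0.54, limma adjusted p = 0.0064). CENPA, the centromeric histone (log2 0.43, limma adjusted p = 0.00247), and KIF20A, a kinesin of cytokinesis (log2 0.315, limma adjusted p = 0.012), rose as well, and these 3 calls held under all 16 settings. The fourth, BUB1B, a spindle checkpoint kinase named after its value was seen, had a log2 difference of 0.255 (limma adjusted p = 0.00812), and it too was called under all 16 settings. UBE2C, a ubiquitin-conjugating enzyme of mitotic exit, fell (log2 -0.32, limma adjusted p = 0.0234) and lost its call without control library 2 or 3, without DNMT3A library 1, without a filter and with quantile normalization (0.0615 to 0.071). The abundant mitosis genes TOP2A (log2 0.11) and TPX2 (log2 0.02) did not pass.

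**Figure D4:**
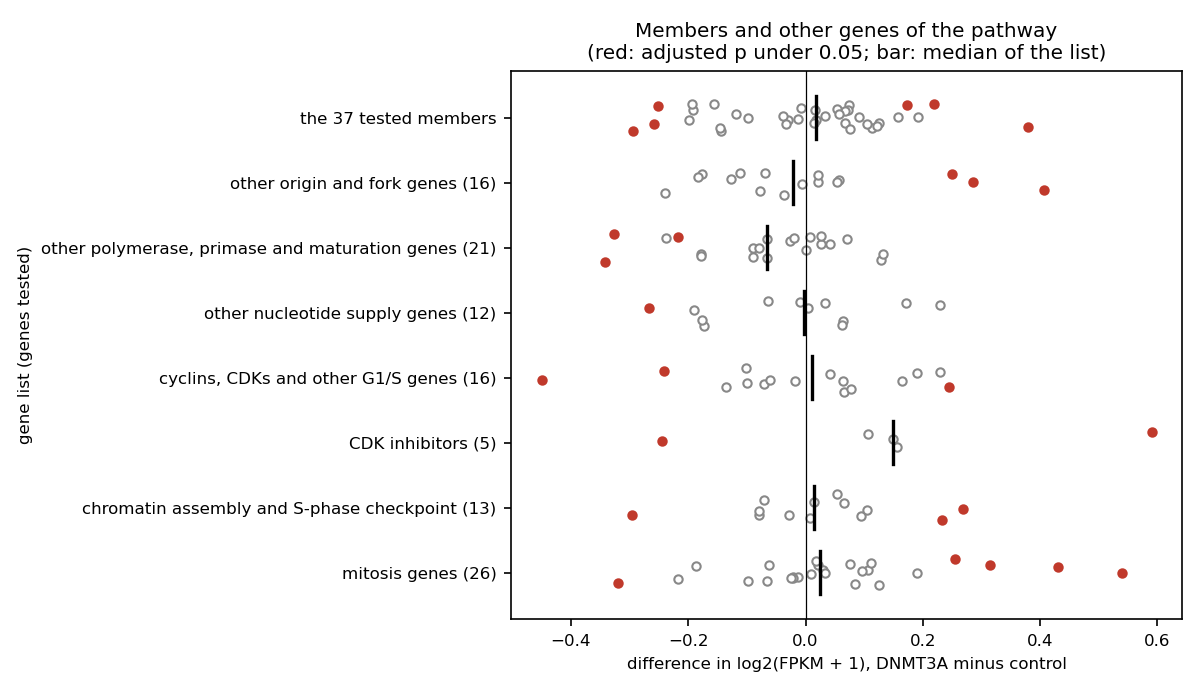
Each point is the difference in log2(FPKM + 1), DNMT3A minus control, of 1 gene, for the 37 tested members and 7 lists of other pathway genes; red points passed the adjusted threshold and black bars are list medians. Medians lie between -0.065 and 0.15, and the called genes lie on both sides of 0 in the members' list.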

How the data were processed

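Poly(A) RNA of 8 HepG2 libraries was sequenced, 4 control and 4 DNMT3A, and grouped by sample title. The submitters' processing notes name HISAT2 2.0.5 and the build hg38. Which program counted the reads is not stated there. Per the file headers, the authors deposited FPKM for each gene. The 38 members' coordinates and gene lengths equal those of GENCODE release 29 and its merged exons. FPKM times length gave whole multiples of a step for 100% of values (tolerance 0.01 of a read). The library total implied by that step equalled the libraries' median-ratio size factor times the geometric mean of their read totals (ratio 1), so the deposited columns were already on a median-ratio scale, which corrects depth by the typical gene.

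Genes whose FPKM averaged 1 or more over the libraries were tested on log2(FPKM + 1) with limma 3.58.1 in R 4.3.3 (intensity trend, Benjamini-Hochberg over 11620 genes). The fit was tested on simulated data, in which every planted change was larger than that of any called member. That test therefore does not show how well changes of the members' size are found. The members and lists were chosen with earlier results of these data known. Values are given by library for called members, for the most abundant of each role and for others that came near the threshold or were chosen after their values were seen. From each other list the rule took up to 4 called genes with the largest change and up to 2 uncalled with the highest mean. Alternatives were to leave out each library in turn, voom on recovered reads, a block for replicate number, quantile normalization, median-ratio scaling, array weights, a pseudocount of 0.1, and testing with no filter. Scaling to read totals was added after the data were seen, as was leaving out promoter windows over 10000 bases from the gene's start.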

Additional observations from a re-analysis of the deposited data

Results flagged for a closer look

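In 4 cases 1 library stood apart from the other 3 of its group by more than Dixon's 95% critical value for 4 samples (the gap to the nearest library over the group's range). Chance flags about 1 in 20 groups, and 144 groups of 72 genes were examined. E2F1 was at 29.5 FPKM in control library 4, with the next at 28.3 FPKM, a narrow group in which a small gap is enough. E2F3 was at 7.50 FPKM in control library 1, with the next at 9.33 FPKM. GINS3 was at 3.39 FPKM in DNMT3A library 3, with the next at 3.82 FPKM. CDKN1A was at 46.9 FPKM in DNMT3A library 2, with the next at 34.7 FPKM.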

How the results depend on the processing

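Of the 6 called members 1, E2F1, was called under all 16 settings; of the 20 called genes named from the other lists 10 were, and 10 lost the call in at least 1 setting (limma adjusted p = 0.0505 to 0.13). The 6 called members kept their direction under every setting. The count of called members was 3 without a filter, 9 with array weights and 1 to 7 when a library was left out. The count over all tested genes, 2389, was 3756 with array weights and 1508 to 2443 when a library was left out. The count of other pathway genes was 12 without a filter, 33 with array weights and 11 to 22 when a library was left out. Median-ratio scaling could change little, since all 8 factors of the deposited columns were 1.00663. Deviations of same-numbered libraries correlated weakly (0.159, -0.0816, -0.0248 and 0.0978), within the span of differently numbered ones (-0.322 to 0.202). Such weak values cannot exclude that libraries were handled in pairs, and the titles give only a number. With the replicate number as a block 4 members, 14 other pathway genes and 1881 genes in all were called, the difference of DNMT3A was 1.085, and 8 named genes lost their calls: MCM3 (limma adjusted p = 0.0941), E2F7 (0.0755), WDHD1 (0.0518), POLE3 (0.0848), CDC25A (0.0813), CKS1B (0.0774), CDKN3 (0.0706) and WEE1 (0.0658). The block ended no other named call.

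Uncalled members with differences near 0 changed sign under some settings. With quantile normalization CDC6 was at 0.019, GMNN at 0.023 and MCM6 at 0.0. With scaling to read totals CDC6 was at 0.014 and GINS3 at 0.004, and with voom at 0.014 and 0.005. With array weights MCM4 was at -0.036 and E2F3 at -0.027. When a library was left out the range was -0.048 to 0.036 for CDC6, -0.106 to 0.018 for GMNN, -0.003 to 0.043 for MCM4, -0.01 to 0.045 for GINS1, -0.03 to 0.022 for GINS3, -0.013 to 0.114 for GINS4, -0.029 to 0.17 for TYMS and -0.06 to 0.05 for E2F3. The cause of these shifts was not tested. Depth limits CCNE2, which had 50 to 79 reads.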
